A study of Mus musculus with 2 samples.

Results

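Integrins are the cell-surface receptors that join cells to the matrix and to each other, and the genes described here are those of the integrin family in the whole uterus of the mouse. Gene symbols that begin with Itga, with Itgb and a digit, or read Itgbl1 were taken from the deposited table, which gave 31 of its 22740 genes. Of these, 18 encode alpha subunits and 9 encode beta subunits. The other 4 carry an integrin-like name but are not subunits: Itgb1bp1, Itgb1bp2, Itgb3bp and Itgbl1. RNA was measured in 2 libraries of 1 group, each from 1 C57BL/6 mouse on day 4 of pregnancy, with samples titled WT and no treatment named. They are named uterus 1 and uterus 2 here, following the sample titles. Values are the authors' RPKM, read counts corrected for transcript length and library depth, so levels of different genes can be set side by side. Mean ± SD is over the 2 uteri.

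An integrin is a pair of 1 alpha and 1 beta chain, both of which span the membrane. The alpha chain largely sets which ligand is bound, and the beta chain carries the cytoplasmic tail that talin and kindlin proteins bind when they switch the receptor on. Tissue integrins hold epithelium, stroma, muscle and vessels to collagen, laminin and fibronectin, while the leukocyte integrins, built on beta2 and beta7, bind adhesion molecules on other cells. In the uterus, integrins of the luminal surface and their ligands such as osteopontin are studied as part of the attachment of the embryo.

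Whole tissue was sequenced, so fewer cells of a type and less RNA per cell cannot be told apart. Stromal, smooth muscle, epithelial and endothelial markers were all at or above 1 RPKM in both uteri (5 of 5, 5 of 5, 6 of 6 and 5 of 5), with list medians of 484 ± 52.6, 332 ± 25.8, 39.7 ± 1.37 and 40.1 ± 0.0864 RPKM. Leukocyte markers reached that level in 7 of 9 cases (median 18.3 ± 0.771 RPKM), platelet markers in 1 of 6 and blastocyst markers in 0 of 4. Reads recovered from the RPKM values summed to 3794298 in uterus 1 and 4215783 in uterus 2.

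The sequence next to a gene's start is shown first, because its base composition differed in median between leukocyte and tissue integrins. The ranges overlapped, and the difference was not tested. The 250 bases upstream of the deposited transcript start were read from mouse build NCBIM37 (mm9). Those of 3 leukocyte integrins, picked as examples after the matches were seen, and of Itgb1, the highest subunit, follow, 5′ to 3′ on the gene's own strand. Capitals mark GAGGAA, a sequence that the myeloid and lymphoid factor PU.1 can bind, and GGGCGG, the core of the GC box bound by Sp factors. Either is marked on both strands, so TTCCTC and CCGCCC are the same motifs read from the other strand.
Itgb2, chr10:76992843-76993092, plus strand: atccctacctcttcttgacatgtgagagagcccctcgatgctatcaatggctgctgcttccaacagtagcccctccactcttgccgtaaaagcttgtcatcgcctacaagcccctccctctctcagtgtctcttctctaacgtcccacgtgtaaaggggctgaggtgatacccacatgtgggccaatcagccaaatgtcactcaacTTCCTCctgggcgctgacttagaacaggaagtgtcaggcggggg
Itgam, chr7:135205904-135206153, plus strand: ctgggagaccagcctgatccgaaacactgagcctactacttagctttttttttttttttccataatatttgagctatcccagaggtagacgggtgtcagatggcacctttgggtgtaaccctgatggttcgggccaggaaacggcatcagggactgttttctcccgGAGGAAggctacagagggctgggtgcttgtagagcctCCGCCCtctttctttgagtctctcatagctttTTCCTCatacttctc
Itgal, chr7:134439524-134439773, plus strand: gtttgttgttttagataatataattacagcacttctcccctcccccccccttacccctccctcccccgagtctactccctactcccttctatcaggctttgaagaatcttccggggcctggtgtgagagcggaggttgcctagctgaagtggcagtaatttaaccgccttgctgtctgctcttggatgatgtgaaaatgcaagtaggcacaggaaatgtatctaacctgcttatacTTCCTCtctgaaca
Itgb1, chr8:131209304-131209553, plus strand: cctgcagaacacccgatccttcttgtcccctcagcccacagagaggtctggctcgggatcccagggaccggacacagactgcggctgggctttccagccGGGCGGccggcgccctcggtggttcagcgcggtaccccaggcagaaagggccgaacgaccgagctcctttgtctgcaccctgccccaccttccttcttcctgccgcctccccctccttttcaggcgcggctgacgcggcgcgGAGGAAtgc
The 3 leukocyte windows each hold GAGGAA, at 1 place in Itgb2 and Itgal and at 2 in Itgam, which also has 1 place of GGGCGG. Of the other leukocyte integrins, Itgb2l holds GAGGAA too, and Itgb7, Itgax, Itgae and Itgad do not in this window. Itgb1 holds 1 of each motif.

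Across the family, GC content of these windows was 48.8% to 56.0% in the 8 leukocyte integrins and 48.0% to 76.4% in the 19 tissue integrins. The ratio of CpG found to CpG expected from the window's C and G had a median of 0.268 in leukocyte integrins, 0.639 in tissue integrins and 0.542 over 22663 genes. None of the 8 leukocyte integrins exceeded a ratio of 0.6, whereas 11 of the 19 tissue integrins did (57.9%), against 45.6% of all genes. The groups overlapped: the tissue subunits Itga2b, Itga10 and Itga4 lay at or below the highest leukocyte value, 0.391 in Itgb2. GAGGAA was present in 4 of 8 leukocyte windows, 6 of 19 tissue windows (31.6%) and 22.7% of all windows. GGGCGG was present in 1 of 8, in 10 of 19 (52.6%) and in 43.3% of all windows. TATAAA was found in none of the 27 subunit windows, against 11.9% of all windows. These are matches of letters and not measured binding. Of the 31 windows, 22 belong to genes with an entry in the RefSeq promoter table for GRCm38.p6, and 15 are identical to such an entry. Of the windows shown, those of Itgam and Itgb1 are identical to an entry, and Itgb2 and Itgal have none.

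**Figure D1:**
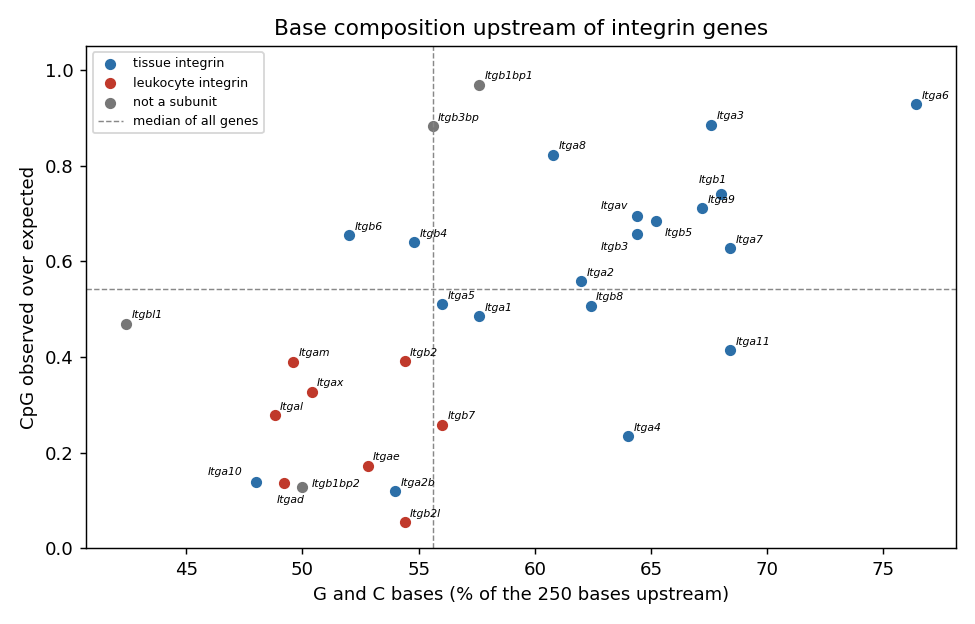
G and C content (% of 250 bases upstream of the deposited start) against CpG observed over expected, 1 point per gene, with leukocyte integrins in red, tissue integrins in blue and the 4 genes that are not subunits in grey. The 8 red points lie at or below 0.391, and dashed lines mark the medians over 22663 genes.

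Most of the family was expressed. At 1 RPKM or more in both uteri, 24 of the 27 subunits were detected (88.9%), where the same rule held for 58.4 percent of all genes. The 3 below it were Itga11, Itgb2l and Itgad. Levels were close between the animals: the median SD was 5.05% of the mean over the 27 subunits. Placed in order of mean level, 12 of the 26 neighbouring pairs had overlapping ranges over the 2 uteri. The upper 5 places did not overlap: Itgb1, Itga6, Itgb5, Itgav and Itga1. Lower down the order is less firm. Itgam, Itga8, Itgb4, Itga4, Itgb7 and Itga7 formed a run from 8.52 to 5.78 RPKM in which each overlapped its neighbour. Itga2, Itgax, Itgae, Itgb6 and Itga10 formed another from 2.34 to 1.86 RPKM.

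**Figure D2:**
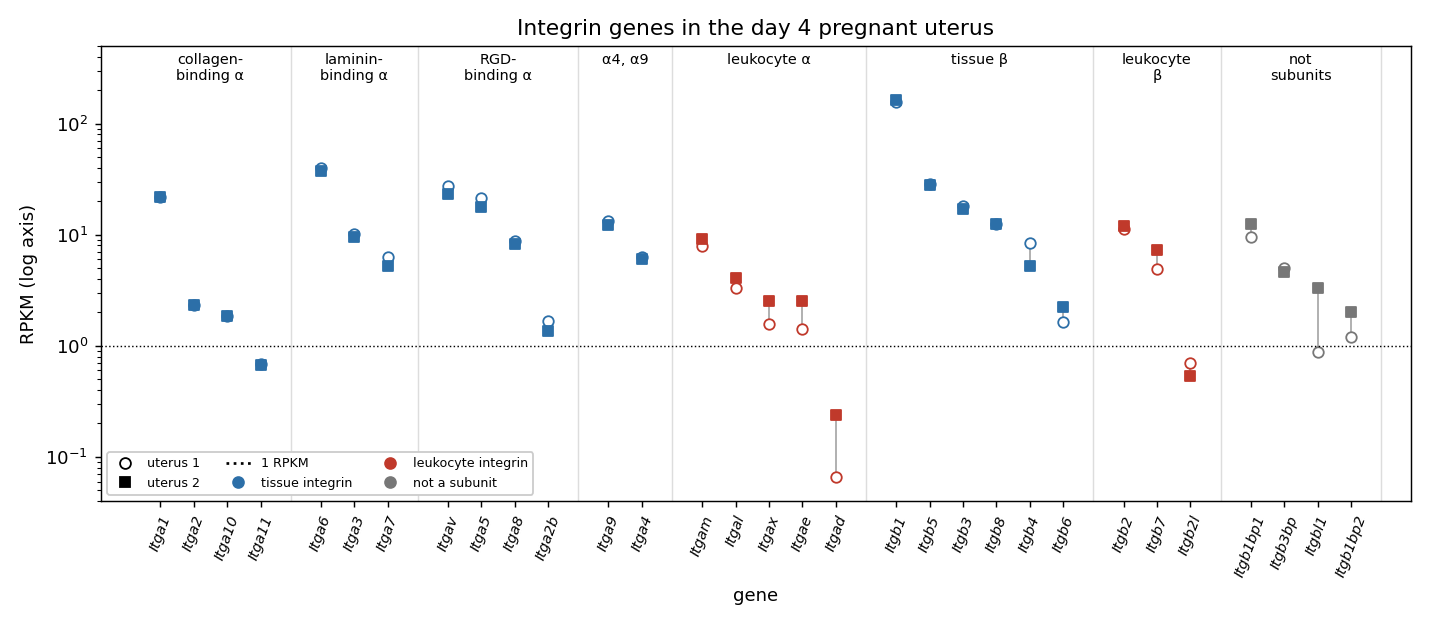
RPKM on a log axis for the 31 genes, grouped by role, with uterus 1 as an open circle and uterus 2 as a filled square joined by a line. Itgb1 stands highest at 158 and 163 RPKM, and of the subunits only Itga11, Itgb2l and Itgad lie below the dotted line at 1 RPKM in either uterus.

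Among beta subunits, Itgb1, the partner shared by most alpha chains, dominated. It lay at 158 and 163 RPKM (uterus 1, then uterus 2, as in each pair of values that follows), on 2533 and 2905 reads, above 98.9% of all genes. It held 65.3% ± 0.718 of the summed beta level. Itgb5, which forms a vitronectin receptor with alpha v, followed at 28.4 and 27.99 RPKM. Itgb3, the chain of the vitronectin receptor alpha v beta3 and of the platelet fibrinogen receptor, lay at 18.0 and 17.1 RPKM. These 3 genes kept the same order in both uteri without overlap.

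The remaining tissue beta subunits were lower. Itgb8, whose pair with alpha v releases latent TGF-beta, lay at 12.4 RPKM in both uteri. Its reads are at least 147 and 164, since the transcript length used by the authors could not be told with confidence. Itgb4, the chain of the hemidesmosome that ties epithelium to laminin, lay at 8.50 and 5.22 RPKM. Itgb6, an epithelial chain that also releases latent TGF-beta, lay at 1.63 and 2.25 RPKM on 32 and 49 reads. Itgb4 was the one of the 6 tissue beta subunits that differed between the uteri by the test below.

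Alpha subunits were lower and more evenly spread. Their median was 5.99 ± 0.486 RPKM over 18 genes, against 11.6 ± 0.491 RPKM over 9 beta subunits and 3.26 ± 0.0405 RPKM over all 22740 genes. Summed, the alpha chains reached 176 and 166 RPKM and the beta chains 243 and 247 RPKM, a beta to alpha ratio of 1.38 in uterus 1 and 1.49 in uterus 2. That order rests on Itgb1: without it, summed alpha was 2.01 ± 0.0600 times the rest of the beta level. The 4 highest alpha genes, Itga6, Itgav, Itga1 and Itga5, held 61.5% ± 1.71 of the summed alpha level.

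Of the laminin receptors, Itga6 was the highest alpha subunit of all, at 39.5 and 37.7 RPKM on 637 and 674 reads. Itga3, which pairs with beta1 in epithelia, lay at 10.2 and 9.59 RPKM. Itga7, the laminin receptor chain of muscle, lay at 6.36 and 5.20 RPKM. The 3 laminin-binding chains held 31.7% ± 0.259 of the summed alpha level.

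The RGD-binding chains, which recognise the Arg-Gly-Asp motif of fibronectin and vitronectin, held 32.1% ± 2.44. Itgav lay at 27.6 and 23.1 RPKM on 747 and 694 reads. Itga5, the classical fibronectin receptor chain, lay at 21.5 and 17.9 RPKM on 360 and 332 reads. Both were lower in uterus 2, and only Itgav passed the test below. Itga8, whose ligands include nephronectin, lay at 8.71 and 8.25 RPKM. Itga2b, the platelet fibrinogen receptor chain, lay at 1.67 and 1.37 RPKM on 22 and 20 reads. Beside it, the platelet markers Ppbp and Gp9 were listed at 0 in both uteri, and the summed platelet marker level was 7.34 and 4.19 RPKM, of which Pf4 made up 5.77 and 1.998 RPKM on 13 and 5 reads. Gp1ba went the other way, at 0.478 and 1.21 RPKM on 5 and 14 reads, and Gp1bb and Gp5 rested on 4 or 5 reads in each uterus.

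The 4 collagen-binding chains were unequal. Itga1, a receptor for basement membrane collagen found on smooth muscle and stroma, lay at 21.6 and 21.8 RPKM on 496 and 554 reads. Itga2 lay at 2.35 and 2.34 RPKM, Itga10 at 1.86 in both uteri and Itga11, a fibroblast receptor for fibrillar collagen, at 0.687 and 0.666 RPKM on 13 and 14 reads. All 4 varied between animals by less than 3% of their level, and Itga1 was far above the other three in both uteri. Itga1 and Itga2 stand next to each other on chromosome 13, 26.04 kb apart with no other listed gene between them, so neighbours on the chromosome differed widely in level. Itga9, a chain that binds tenascin C and VCAM-1 and pairs with beta1, lay at 13.2 and 12.3 RPKM, and Itga4, its nearest relative in sequence and ligand, at 6.31 and 6.09 RPKM. Itga4 is also carried by many leukocytes and was counted here with the tissue integrins.

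Leukocyte integrins were present at a lower level than tissue integrins. Their median was 2.85 ± 0.607 RPKM over 8 genes, against 9.87 ± 0.404 RPKM over 19 tissue subunits, and 6 of 8 were detected, against 18 of 19. Summed, they held 7.41% of the subunit level in uterus 1 and 9.20% in uterus 2. Counting Itga4 with them moved their median to 3.67 RPKM and the tissue median to 11.1 RPKM, so the order of the medians did not depend on where that gene was placed. No test was made over genes, which are not replicates.

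Itgb2, the common beta chain of the leukocyte adhesion receptors, lay at 11.2 and 11.9 RPKM on 123 and 145 reads. Its partners were led by Itgam, the CD11b chain of macrophages, neutrophils and natural killer cells, at 7.91 and 9.13 RPKM. Itgal, the LFA-1 chain carried by most leukocytes, lay at 3.29 and 4.05 RPKM. Itgax, the CD11c chain of dendritic cells and macrophages, lay at 1.56 and 2.51 RPKM on 24 and 43 reads. Itgad rested on 1 and 4 reads (0.0658 and 0.237 RPKM). Itgam therefore made up 52.5% ± 4.23 of the summed leukocyte alpha level. Itgam, Itgax and Itgad stand in a row on chromosome 7, with gaps of 11.1 and 23.3 kb and no other listed gene between them, and Itgal lies 728 kb before them. These copies resemble each other, and the counting of shared reads is not given in the sources used here. Itgb2l, a close copy of Itgb2 on chromosome 16, lay at 0.697 and 0.538 RPKM on 7 and 6 reads, for which the same limit holds.

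Itgb7, the chain of lymphocytes that home to mucosa, lay at 4.88 and 7.21 RPKM on 50 and 82 reads. Its partner Itgae, the CD103 chain that binds E-cadherin on epithelium, lay at 1.43 and 2.52 RPKM. Its reads are at least 25 and 49, with the same doubt on length as for Itgb8, and its interval and p below rest on these smallest reads. Both genes were higher in uterus 2. The E-cadherin gene Cdh1 lay at 26.4 and 24.9 RPKM, while Madcam1, the gut vessel ligand of alpha4 beta7, was listed at 0 in both uteri.

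Of the 9 beta chains, 8 were then set beside the summed level of the alpha chains they are known to pair with, leaving out Itgb2l. Itgb1, at 160.1 ± 3.69 RPKM, met 12 partners that summed to 153 ± 9.33 RPKM, a partner to beta ratio of 1.01 in uterus 1 and 0.901 in uterus 2. Itgb2 met 4 partners at a ratio of 1.14 and 1.34, and Itgb7 met 2 at 1.59 and 1.20. Most of the Itgb7 partner sum of 8.18 RPKM is Itga4, at 6.20 RPKM, which also pairs with Itgb1. Itgb5 and its single partner Itgav were also close, at 0.971 and 0.826. Itgb3 and its 2 partners stood at 1.63 and 1.43, and Itgav over Itgb8 at 2.23 and 1.86. The widest gaps were 2: Itga6 exceeded Itgb4 by 4.65 and 7.22 times, and Itgav exceeded Itgb6 by 16.9 and 10.3 times. Some alpha chains enter several sums, since Itgav has 5 beta partners and Itga6 and Itga4 have 2 each, so the ratios are not independent. RNA levels do not give the amount of paired protein.

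**Figure D3:**
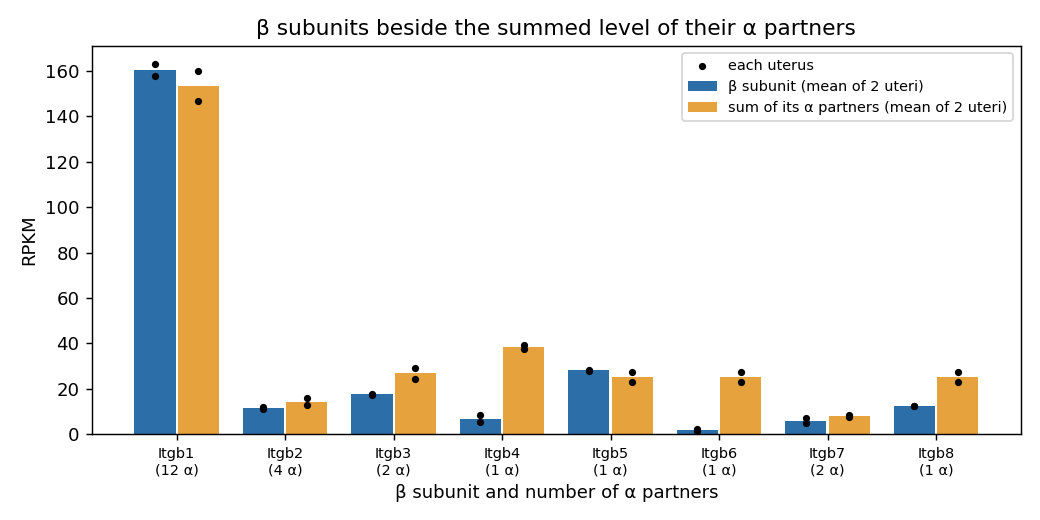
Mean RPKM of 8 beta subunits (blue) and of the summed alpha partners of each (orange), with a dot for each uterus and the number of partners in brackets. The 2 bars are near in height for Itgb1 (160.1 and 153 RPKM) and Itgb5 (28.2 and 25.4 RPKM) and far apart for Itgb4 (6.86 and 38.6 RPKM) and Itgb6.

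The last question was how far the 2 animals differed. No subunit averaging 1 RPKM or more was 2-fold apart, where 2.6 percent of all such genes were. A two-sided exact binomial test on the recovered reads, adjusted by Benjamini-Hochberg over 15135 genes, called 2 of 26 tested subunits, Itgb4 and Itgav, against 4.84 percent of all tested genes. Both were lower in uterus 2, as were 2.62 percent of all tested genes, while 0 subunits were called in the other direction, against 2.22 percent. At an unadjusted p under 0.05, the same test gave 5 of 26 subunits, against 15.7 percent of all tested genes: Itgb4, Itgav and Itga5 lower in uterus 2, and Itgae and Itgb7 higher. The test compares these 2 libraries and their counting error, not conditions, and calls depend on depth: among genes with at least 1000 reads in sum, 21.6 percent were called. The share of subunits called is near the background.

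Itgb4 had 201 reads in uterus 1 and 137 in uterus 2, a ratio of 0.614 in RPKM (95% exact interval 0.491 to 0.767) with an adjusted p of 0.000618. Its partner Itga6 had a ratio of 0.953 (0.854 to 1.06), an interval that does not overlap that of Itgb4. Of the 6 epithelial markers, 3 were higher in uterus 2 (Epcam, Krt8 and Krt18) and 3 lower (Krt7, Krt19 and Cdh1). Their median log2 ratio was 0.05, and they summed to 257 and 289 RPKM. Only Krt18 was called, at 70.4 and 94.3 RPKM (adjusted p 0.000739, exact binomial test), opposite to Itgb4. The part of epithelial cells in the Itgb4 difference was not tested. Itgav had a ratio of 0.837 (0.754 to 0.929) with an adjusted p of 0.0205 in the same exact test. Itga5 had a similar ratio of 0.831 (0.714 to 0.967) on fewer reads and an adjusted p of 0.163 in that test, so it was not called. On its smallest possible reads, 180 and 166, the same test gave an adjusted p of 0.461.

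Tissue alpha chains and leukocyte integrins leaned to opposite sides, though the difference between these groups was not tested. Of the 18 tissue subunits averaging 1 RPKM or more, 13 were lower in uterus 2, with a median log2 ratio of -0.07. These were 10 of 12 alpha chains (median -0.08) and 3 of 6 beta chains (median -0.01), so the beta chains were split evenly. All 6 leukocyte subunits at that level were higher in uterus 2, with a median log2 ratio of 0.42, where 50.1 percent of all genes were higher. None of the 6 passed the test. The largest ratio among them was that of Itgae, at 1.77 (95% exact interval 1.07 to 2.98) with an adjusted p of 0.195 in the exact binomial test. Itgb7 had a ratio of 1.48 (1.03 to 2.14) with an adjusted p of 0.242 in that test. On its smallest possible reads, 25 and 41, the same test gave an adjusted p of 0.573. Itgb2, with more reads, had a ratio of 1.06 (0.829 to 1.36). Below 1 RPKM, Itgb2l was lower in uterus 2, on 7 and 6 reads, and Itgad was higher, on 1 and 4 reads. Of the 8 leukocyte markers averaging 1 RPKM or more, 6 were higher in uterus 2, with a median log2 ratio of 0.14, and the 9 markers summed to 160.1 and 174 RPKM. None of the 9 markers was called. The common leukocyte genes Ptprc and Cd53 lay at 17.7 and 21.6 RPKM and at 7.45 and 11.2 RPKM (adjusted p 0.0637 and 0.0805, exact binomial test). Tyrobp, the highest of the markers, was nearly level at 50.7 and 51.1 RPKM. Coro1a lay at 27.3 and 29.4 RPKM and Laptm5 at 16.6 and 18.8 RPKM. The macrophage gene Csf1r lay at 19.4 and 22.9 RPKM, whereas Emr1, also of macrophages, lay at 19.2 and 17.3 RPKM. The T cell gene Cd3e rested on 7 and 6 reads. Of other cell types, 4 of 5 stromal markers were higher in uterus 2, with a median log2 ratio of 0.22. The exact binomial test called Dcn, Vim and the smooth muscle gene Myh11 higher. It called Col1a1, the smooth muscle gene Acta2 and the endothelial gene Kdr lower. The part of cell numbers, of leukocytes or others, in the ratios of the leukocyte integrins was not tested.

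**Figure D4:**
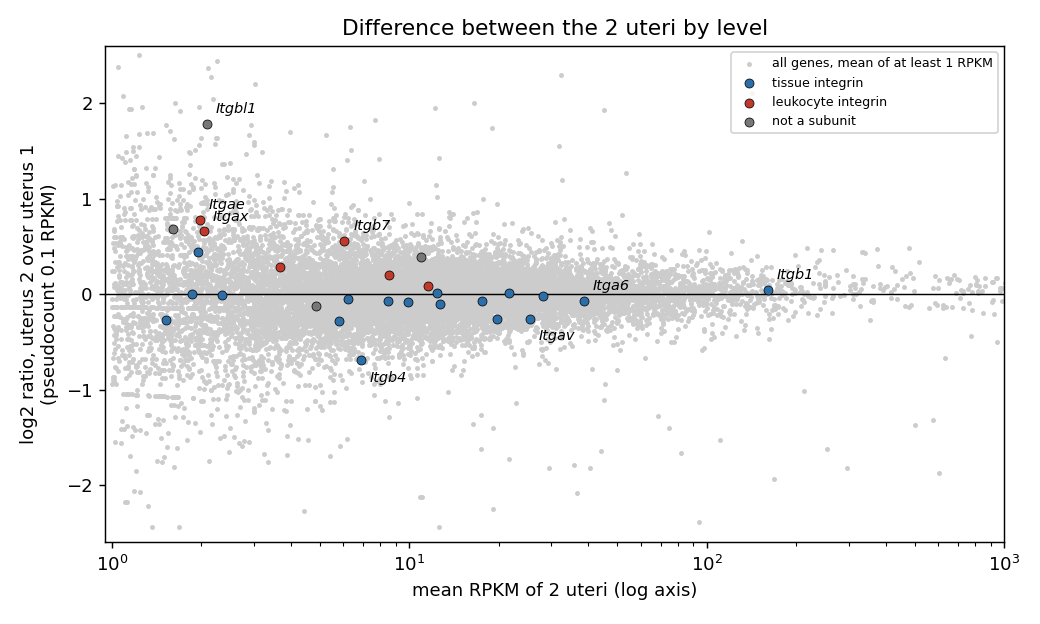
Log2 ratio of uterus 2 over uterus 1 (pseudocount 0.1 RPKM) against mean RPKM on a log axis, with integrin genes coloured over 13647 genes in grey, of which 78 lie outside the axes. The 6 red points of leukocyte integrins lie above 0, and Itgb4 and Itgbl1 stand farthest below and above among the 28 coloured points.

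The 4 genes that are not subunits were described apart. Itgbl1, which encodes a secreted protein with integrin-like repeats, lay at 0.885 and 3.29 RPKM on 8 and 33 reads. It averaged 1 RPKM or more only through uterus 2, and was the one gene of the 31 past that filter that was 2-fold apart, at a ratio of 3.72 (95% exact interval 1.68 to 9.31) and an adjusted p of 0.00931. Itgb1bp1, the ICAP-1 protein that binds the beta1 tail and holds the receptor inactive, lay at 9.46 and 12.4 RPKM. Itgb1bp2, the muscle protein melusin, lay at 1.21 and 1.999 RPKM on 6 and 11 reads. Itgb3bp, which despite its name encodes a centromere protein, lay at 5.05 and 4.63 RPKM. Of the 4, only Itgbl1 passed the exact binomial test, which 4.84 percent of all tested genes did.

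As a list, ligand genes lay above the receptors, whose median over 27 subunits was 7.56 ± 0.499 RPKM. Of 36 listed ligand genes, 30 were detected, with a median of 16.5 ± 0.306 RPKM. The highest were the collagens Col1a1 at 1017 ± 236 RPKM, Col1a2 at 922 ± 92.5 RPKM, Col6a1 at 497 ± 7.25 RPKM and Col4a1 at 235 ± 24.6 RPKM, then fibronectin, Fn1, at 219.5 ± 21.8 RPKM. The exact binomial test called 8 of 32, of which 7 fell in uterus 2: Col1a1, Col1a2, Col4a1, Col4a2, Fn1, Lama5 and Thbs1. The share called over all tested genes was 4.84 percent, with 2.62 percent lower in uterus 2 and 2.22 percent higher. Lama2, the laminin chain of muscle basement membrane, rose from 66.7 to 74.4 RPKM. All 8 have at least 1000 reads in sum, so 8 of the 15 ligands at that depth were called, against 21.6 percent of all genes. None was 2-fold apart. Osteopontin, Spp1, lay at 12.0 and 15.0 RPKM, and the vascular ligands Vcam1 and Icam1 at 6.68 and 4.70 RPKM and at 15.7 and 15.9 RPKM. The fibrinogen genes Fgb and Fgg were listed at 0 in both uteri.

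Genes of integrin activators, inhibitors, membrane partners and adhesion adaptors were all detected, 33 of 33, with a median of 38.5 ± 3.63 RPKM. Filamin A, Flna, which competes with talin for the beta tail, was highest at 559 ± 39.7 RPKM, followed by the tetraspanins Cd81 at 208 ± 5.24 RPKM and Cd9 at 96.5 ± 6.52 RPKM, then Actn1 at 83.7 ± 8.74 RPKM and Ilk at 81.8 ± 10.7 RPKM. Talin 1, Tln1, which switches integrins on, lay at 80.5 and 69.8 RPKM and Tln2 at 9.33 and 7.45 RPKM. Of the kindlins, the widely expressed Fermt2 lay at 53.4 and 49.7 RPKM, the epithelial Fermt1 at 6.55 and 5.99 RPKM and the blood cell Fermt3 at 6.35 and 5.63 RPKM. The exact binomial test called 6 of 33, and all 6 fell in uterus 2: Flna, Actn1, Ilk, Tln1, Tns1 and Tln2. Of all tested genes 4.84 percent were called, 2.62 percent lower in uterus 2 and 2.22 percent higher. Of the 15 adaptors with at least 1000 reads in sum, which leave out Tln2, 5 were called, against 21.6 percent of all genes at that depth.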

How the data were processed

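Poly-A RNA of the whole uterus of 2 mice was sequenced, 1 library per animal. The deposited values are RPKM, normalized by the authors per the series' design text. TopHat, edgeR and build mm9 are named in the submitters' processing notes. Their versions and roles, the annotation, the use of strand and the treatment of shared reads are not given in the sources used here. Both deposited tables hold identical RPKM for all 22740 genes, and coordinates come from the annotated one, read as starting from 0 and printed from 1 on NCBIM37, which is mm9.

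Reads were recovered with Python 3.11.15, numpy 2.4.6 and scipy 1.17.1. The ratio of the uteri was a ratio of whole numbers for all 16104 genes above 0 in both (relative tolerance 1e-10). The scaling total of uterus 1, 3834174, is the value shared by 464 single-exon genes, and it gave whole transcript lengths for 17420 of 17426 genes (tolerance 1e-06 bases). A factor common to both reads was chosen by closeness to GENCODE M1 transcript lengths (scale 0.05 in the logarithm), and 1205 genes without a length kept the smallest reads. On simulated libraries 95.1% of 16079 genes came back exactly. There the exact binomial test called 81.0% of 100 genes changed 2-fold at 50 or more reads and 0.195% of 14835 unchanged genes. These shares describe the simulation alone. Whether the factors are right for the real genes, and how often 2 animals differ, was not tested by it. Counting intervals are exact (Clopper-Pearson, 95%) and describe counting error alone, not variation between animals. They treat each read as a separate molecule, so reads copied by PCR would make them too narrow.

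The exact binomial test used genes with at least 6 reads in sum and an expected share of 52.6% in uterus 2. Log2 ratios used a pseudocount of 0.1 RPKM, which understates the change of low genes, and genes averaging 1 RPKM or more. With 1 group no test between conditions exists. Every gene found by symbol is named, with the 5 highest ligands and adaptors and those called. Members and lists were chosen with earlier results of these data known, and the promoter motifs, the split at 1000 reads and single low ligands, kindlins and markers after values were seen. Alternatives were the threshold, pseudocount, filter, scale, list membership, read factor and each library alone. Protein sequences were not used here.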

Additional observations from a re-analysis of the deposited data

How the results depend on the processing

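Over 57 alternatives, 42 left the result as it was, by side of threshold, by less than 1 SD, within 1.5 times for counts or within 0.1 for the log2 ratio. Rescaling to TPM changes the unit, so medians became 14.2 (alpha), 27.3 (beta), 6.75 (leukocyte) and 23.4 (tissue), and sums 404.9 (alpha) and 580.4 (beta). Keeping only genes that averaged 1 RPKM or more raised medians by construction to 7.15 (alpha), 4.86 (leukocyte) and 11.1 (tissue). Adding Itgbl1 and the binding proteins gave a beta median of 7.85 and a beta sum of 265 RPKM. With Itga4 as a leukocyte integrin the leukocyte median was 3.67 and the tissue median 11.1 RPKM, and the tissue median without Itga2b was also 11.1 RPKM. Without a filter 1 subunit, Itgad on 1 and 4 reads, was 2-fold apart instead of 0. The binomial test called Itgb4 and Itgav under both of its alternatives. Either library alone gave 24 detected subunits, and its step from a mean of 2 is under 1 SD by construction. With smallest possible reads 580 of 14890 genes were called. No paired analysis was possible because the 2 libraries form a single group. Depth limits Itgad, Itgb2l, Itga11, Itgb1bp2 and Itgbl1 most.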
